A study of Mus musculus with 8 samples.

Results

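The cholesterol synthesis and SREBP2 genes of RAW 264.7 cells, a macrophage cell line of BALB/c mouse origin, were followed during culture with a probiotic bacterium. The set holds 29 genes chosen by name: the enzymes of sterol synthesis, the SREBP2 control proteins, a pair of sterol transport proteins and 3 enzymes of fatty acid supply. Each gene was read from the brightest of its probes. All 29 had a probe well above background, out of 14834 genes measured in all. Cells received Lactobacillus acidophilus (strain MTCC-10307) or, on the other 4 arrays, Bacillus clausii (strain MTCC-8326), at a multiplicity of infection of 100, for 1, 2, 4 or 6 h. The control in each case was untreated RAW 264.7 cells of the same time, and no strain carried a stated genetic change. Each of the 8 conditions was measured on 1 two-colour array, with treated RNA in red and untreated RNA in green, and each RNA was a pool of 3 cultures. A value below is the log2 ratio of treated over untreated signal unless stated otherwise, so 0 means equal signal and a value below 0 means less signal in treated cells.

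Cholesterol is built from acetyl-CoA through mevalonate, farnesyl diphosphate, squalene and lanosterol. When sterols in the endoplasmic reticulum run low, the escort protein SCAP carries SREBP2 to the Golgi, where proteases release a fragment that enters the nucleus and raises transcription of these enzymes. When sterols are plentiful, INSIG proteins hold SCAP back and the same genes are transcribed less. Macrophages are known to change sterol synthesis when they meet microbes.

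SREBP2 is known to act through a sterol regulatory element together with NF-Y, which binds CCAAT, and Sp1, which binds GC boxes. The promoter windows of RefSeq (build GRCm38.p6, C57BL/6J, from 250 bases before to 50 after a gene's start) held 24 of the 29 genes. Sqle, Fdps, Fdft1, Stard4 and Npc1 had no entry. On both strands, CCAAT was found for 21 of the 24 genes (87.5%), against 41.1% of all 27025 genes with a window. The GC box GGGCGG was found for 20 of 24 (83.3%), against 38.2% of all genes. The element core TCACNCCAC was found for 1 of 24 (4.17%), against 1.44% of all genes, and that gene was Hmgcs1. The 27025 genes were not limited to those measured here, and the shares among measured genes were not counted. A match is a description of letters and does not show a bound site. The 250 bases before the start site are printed for Hmgcs1 because it alone held the core, and for Msmo1, Ebp and Idi1 because they fell most among the genes with 1 window, a choice made after the values were seen. Capitals mark TCACNCCAC and CCAAT on either strand (CCAAT on the other strand reads ATTGG).
Hmgcs1: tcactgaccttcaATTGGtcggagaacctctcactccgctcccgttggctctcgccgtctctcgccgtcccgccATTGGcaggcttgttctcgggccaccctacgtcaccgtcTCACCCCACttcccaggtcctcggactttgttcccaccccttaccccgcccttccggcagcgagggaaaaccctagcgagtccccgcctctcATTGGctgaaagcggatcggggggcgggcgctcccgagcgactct
Msmo1: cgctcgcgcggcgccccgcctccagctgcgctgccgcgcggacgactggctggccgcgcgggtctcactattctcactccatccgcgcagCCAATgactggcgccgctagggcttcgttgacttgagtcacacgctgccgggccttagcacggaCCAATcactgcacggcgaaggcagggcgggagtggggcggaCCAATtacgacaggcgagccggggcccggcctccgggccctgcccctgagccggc
Ebp: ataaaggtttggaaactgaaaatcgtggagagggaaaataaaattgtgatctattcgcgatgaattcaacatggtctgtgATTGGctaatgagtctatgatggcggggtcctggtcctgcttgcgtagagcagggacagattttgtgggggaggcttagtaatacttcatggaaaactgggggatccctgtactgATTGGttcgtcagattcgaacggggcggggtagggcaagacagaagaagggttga
Idi1: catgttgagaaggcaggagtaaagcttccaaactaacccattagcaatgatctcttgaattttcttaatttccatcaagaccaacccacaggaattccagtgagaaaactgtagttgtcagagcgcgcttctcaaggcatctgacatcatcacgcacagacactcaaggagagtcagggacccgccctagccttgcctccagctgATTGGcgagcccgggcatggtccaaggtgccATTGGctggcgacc
The Hmgcs1 stretch lies at chr13:119690101-119690350 on the plus strand, with the core 137 to 129 bases before the start CCAAT matches beginning 237, 176 and 45 bases before it, and GGGCGG at 92 and 24 bases. The Msmo1 stretch, chr8:64733579-64733828 on the minus strand, held CCAAT at 160, 96 and 55 bases before the start and GGGCGG at 73 and 62 bases. The Ebp stretch, chrX:8193513-8193762 on the minus strand, held CCAAT at 170 and 55 bases and GGGCGG at 33. The Idi1 stretch, chr13:8885356-8885605 on the plus strand, held CCAAT at 45 and 14 bases and GGGCGG at 69. Among the 12 genes with a window that later fell with time, 11 held CCAAT and 11 held GGGCGG. Among the 12 with a window that did not, 10 held CCAAT and 9 held GGGCGG.

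Both 6 h arrays and the 1 h array of B. clausii stood apart in quality. Their median SD between spots of one probe was 0.123 to 0.130, against 0.0966 to 0.110 on the other 5, and 42.3% to 42.9% of untreated probes were above background on them, against 45.1% to 47.5%. The part of this in the results was not tested, and values without the 6 h arrays are given below. Of 41174 probes, between 39.7% and 51.6% were well above background in a channel, and no probe was saturated. Of 11 macrophage markers, 9 were above background in the untreated channel on all 8 arrays, with Cybb on none. All 4 epithelial markers were above background on no array, no fibroblast marker was so on all 8, and of the T cell markers Lck was. Their part in the results was not tested. All 4 arrays of a bacterium shared a slide and a scan, so bacterium and slide cannot be told apart, and the position on the slide cannot be told apart from the time.

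The main pattern was a turn with time. With both bacteria, most of the sterol enzymes that changed were above untreated cells at 1 h and below them at 6 h. With L. acidophilus, the number of the 29 ratios above 0 was 18 at 1 h and 4 at 6 h, and with B. clausii it was 16 and 10. Over 1, 2, 4 and 6 h, the median of the 29 went 0.04, 0.08, -0.03, -0.28 with L. acidophilus. For B. clausii the same medians were 0.08, 0.04, -0.04, -0.20. Over all genes, between 50.1% and 54.2% of ratios were above 0 on every array.

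The change was tested as late (4 and 6 h) minus early (1 and 2 h) in a limma fit of bacterium and time to all 14834 genes, with Benjamini-Hochberg adjusted p under 0.05 as the threshold. Of the 29 genes, 14 fell, 1 rose and 14 did not pass. Of all genes, 12.3% fell and 12.2% rose. The median change of the 29 was -0.18, beside 0.0022 over all genes. For 10 of the 29, all 4 late arrays lay below all 4 early arrays, and for Npc1 they lay above (7.93% and 8.16% of all genes). A test of any difference among the 4 times passed for 14 of the 29, against 22.1% of all genes, and Acly passed only the late minus early test. The count was 8 with local backgrounds as deposited (4.11% of all genes) and 8 with a normexp offset of 0 (4.23%). With the deposited processed signals or the series matrix it was 0, as for all genes (0%). There 19 of the 29 had an unadjusted p under 0.05, but the share of all genes under this unadjusted limit was not counted. The spread in these limma tests is the disagreement of the bacteria at one time, because no condition has a replicate array, and scatter between single cultures was not measured. For late minus early, plain median centring in place of loess gave 7 that fell and 1 that rose (21.7% of all genes passed), and the share of lower genes among all that passed went from 50.2% to 11.6%. With that centring the median change of the 29 was -0.024, beside 0.083 over all genes, and 16 of the 29 values were below 0 in place of 22. Without both 6 h arrays, 9 passed, against 7.98% of all genes. Fewer cells that carry a transcript and less of it per cell cannot be told apart in these RNA pools.

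**Figure D1:**
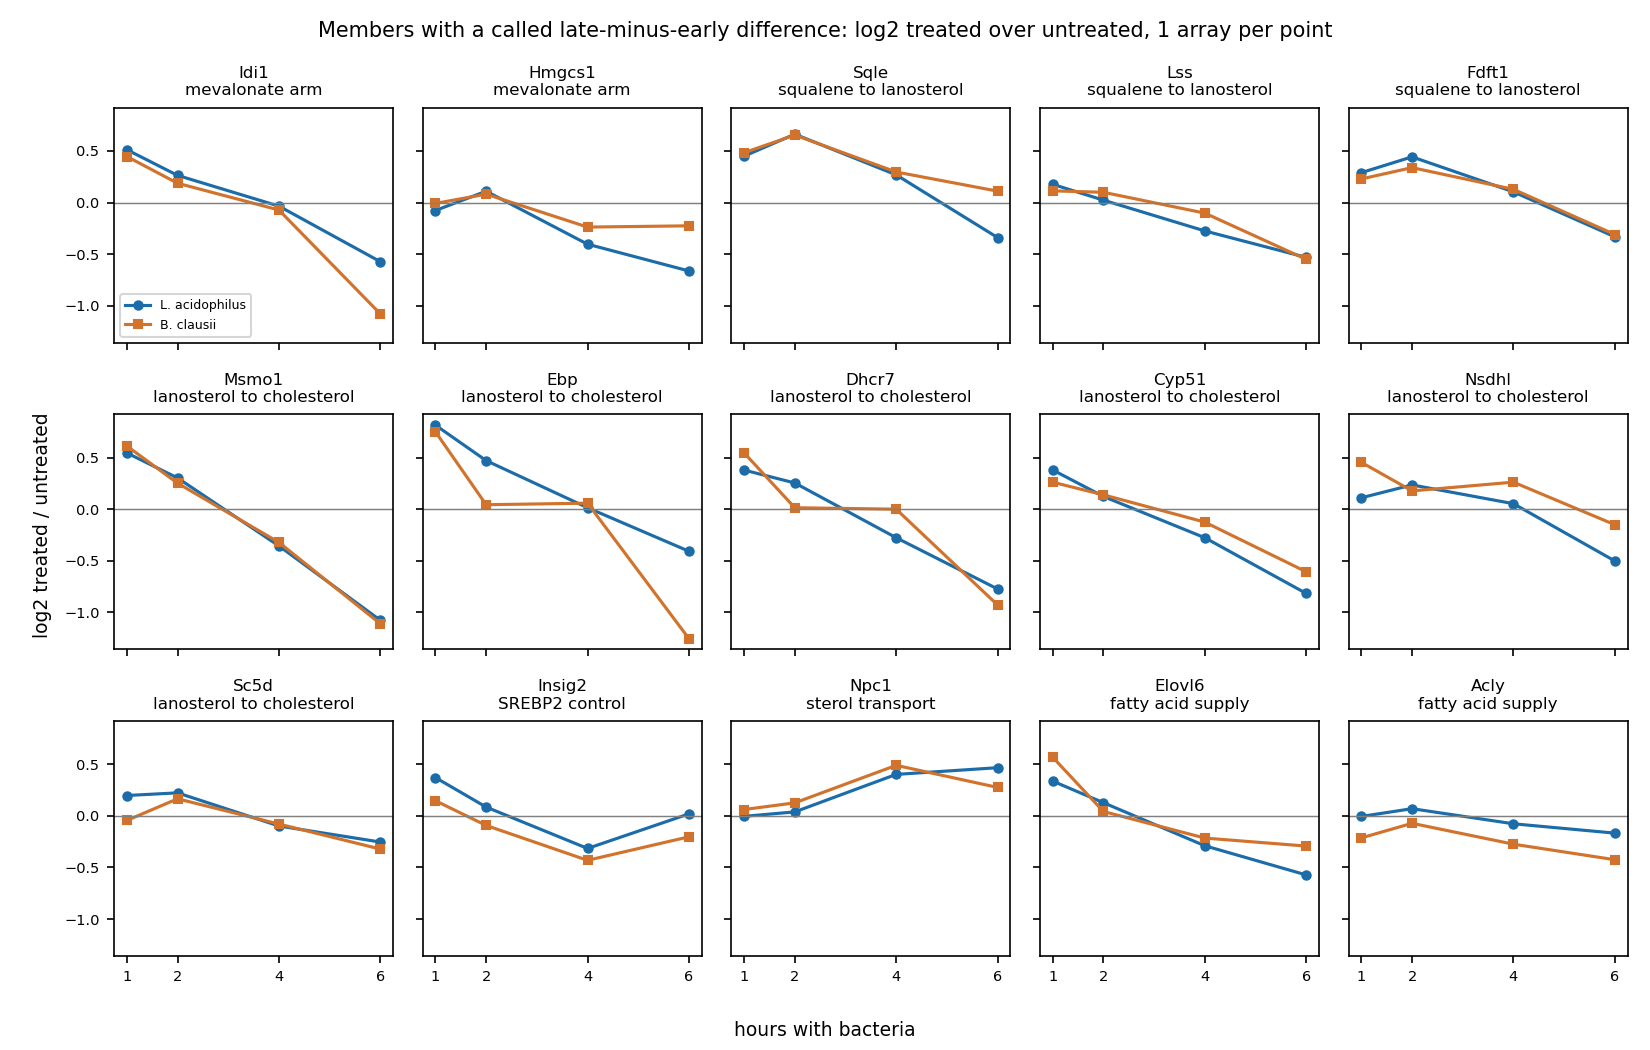
Log2 treated over untreated signal (vertical axis) against hours with bacteria (horizontal axis) for the 15 genes with a late minus early difference that passed the test, 1 array per point, L. acidophilus as circles and B. clausii as squares. Msmo1 falls from 0.54 and 0.61 at 1 h to -1.08 and -1.11 at 6 h, and Npc1 is the gene that rises.

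In the last stretch of the pathway, from lanosterol to cholesterol, 6 of 9 genes fell and none rose, with a median change of -0.33. Of all genes, 12.3% fell and 12.2% rose. The median of the 9 ran 0.20, 0.22, -0.12 and -0.41 over the 4 times with L. acidophilus, and for B. clausii 0.26, 0.04, -0.13 and -0.55. At 6 h none of the 9 ratios was above 0 with L. acidophilus and 1 was with B. clausii.

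Msmo1, the methylsterol oxidase that starts removal of the methyl groups at carbon 4, changed most. Its ratios were 0.54, 0.30, -0.36 and -1.08 with L. acidophilus (1, 2, 4 and 6 h in turn) and 0.61, 0.25, -0.32 and -1.11 with B. clausii. All 4 early values were above 0, all 4 late ones below it, and the series with both bacteria ran almost on top of each other. The late minus early change was -1.14 (SE 0.06, 95% interval -1.27 to -1.02, adjusted p = 3.44e-05). At 6 h the treated signal was 0.474 of the untreated one with L. acidophilus and 0.464 with B. clausii.

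Ebp, the sterol isomerase that moves the ring double bond, had ratios of 0.81, 0.47, 0.01 and -0.41 with L. acidophilus, where B. clausii gave 0.75, 0.04, 0.06 and -1.25. It was the highest of the 29 at 1 h with each bacterium, and the 2 and 4 h values with B. clausii overlapped. The change was -0.92 (SE 0.13, adjusted p = 0.00215), with the widest error of the 29. Dhcr7, the reductase of the final step, had ratios of 0.38, 0.25, -0.28 and -0.77 with L. acidophilus, beside 0.55, 0.01, -0.0002 and -0.93 with B. clausii. Its early and late values did not overlap, and the change was -0.79 (SE 0.09, adjusted p = 0.000899).

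Cyp51, the demethylase that acts first on lanosterol, went 0.38, 0.12, -0.28 and -0.82 with L. acidophilus, and for B. clausii 0.26, 0.14, -0.13 and -0.61. Each step down held with each bacterium, and the change was -0.68 (SE 0.07, adjusted p = 0.000523). Nsdhl, the dehydrogenase that works with Msmo1, had 0.11, 0.23, 0.05 and -0.50 with L. acidophilus, where B. clausii gave 0.45, 0.18, 0.26 and -0.15. Only the 6 h values were below 0, early and late values overlapped, and the change was -0.33 (SE 0.08, adjusted p = 0.0163), which passed in 13 of 27 other settings. Sc5d, the desaturase before Dhcr7, had 0.20, 0.22, -0.10 and -0.25 with L. acidophilus, beside -0.05, 0.16, -0.08 and -0.32 with B. clausii. Its late values all lay below its early ones, and the change was -0.32 (SE 0.06, adjusted p = 0.0075).

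The other 3 genes of the stretch did not pass. The ketoreductase Hsd17b7 had a change of -0.19 (95% interval -0.38 to 0.0019), the sterol reductase Tm7sf2 -0.14 (-0.28 to -0.0038), and the lamin B receptor Lbr, which has the same reductase activity as Tm7sf2, -0.01 (-0.18 to 0.16). The ratio of Tm7sf2 was below 0 on all 8 arrays, from -0.55 to -0.12.

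All 3 genes between farnesyl diphosphate and lanosterol fell, against 12.3% of all genes. Sqle, the squalene epoxidase and a rate-limiting step, had ratios of 0.45, 0.66, 0.27 and -0.34 with L. acidophilus, and for B. clausii 0.48, 0.65, 0.30 and 0.11. It peaked at 2 h with each bacterium and was still above 0 at 6 h with B. clausii, where the signal was 1.08 of the untreated one. Its change was -0.48 (SE 0.08, adjusted p = 0.00494). Fdft1, the squalene synthase, also peaked at 2 h, with 0.29, 0.44, 0.10 and -0.33 with L. acidophilus, where B. clausii gave 0.23, 0.34, 0.13 and -0.31. The change was -0.43 (SE 0.06, adjusted p = 0.00168), and late values lay below early ones throughout. Lss, which closes the rings of lanosterol, had 0.18, 0.02, -0.27 and -0.53 with L. acidophilus, beside 0.11, 0.10, -0.10 and -0.55 with B. clausii. Its values did not overlap between phases, and its change was -0.47 (SE 0.06, adjusted p = 0.00166).

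The mevalonate arm was split. Of its 8 genes 2 fell, against 12.3% of all genes, and 6 did not pass. The median change of the 8 was -0.0066. Idi1, the isomerase that makes dimethylallyl diphosphate, had ratios of 0.51, 0.26, -0.03 and -0.57 with L. acidophilus, and for B. clausii 0.45, 0.19, -0.07 and -1.08. The late values all lay below the early ones, and the change was -0.79 (SE 0.08, adjusted p = 0.000681). Hmgcs1, the HMG-CoA synthase, had -0.08, 0.11, -0.40 and -0.66 with L. acidophilus, where B. clausii gave -0.0081, 0.08, -0.24 and -0.23. It was near 0 at 1 and 2 h and lowest at 6 h with L. acidophilus, early and late values did not overlap, and its change was -0.41 (SE 0.08, adjusted p = 0.00772).

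The 6 others of the arm had changes from -0.12 (the kinase Pmvk) to 0.08 (Fdps, the farnesyl diphosphate synthase), with adjusted p from 0.134 to 0.975. Between them lay the decarboxylase Mvd (-0.0094), Ggps1, which makes geranylgeranyl diphosphate (-0.0039), the thiolase Acat2 (0.02) and the mevalonate kinase Mvk (0.04). The 95% intervals reached no further than -0.25 for Pmvk and 0.26 for Fdps. Acat2 was dim, above background in the treated channel on 2 arrays and in the untreated channel on 4.

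**Figure D2:**
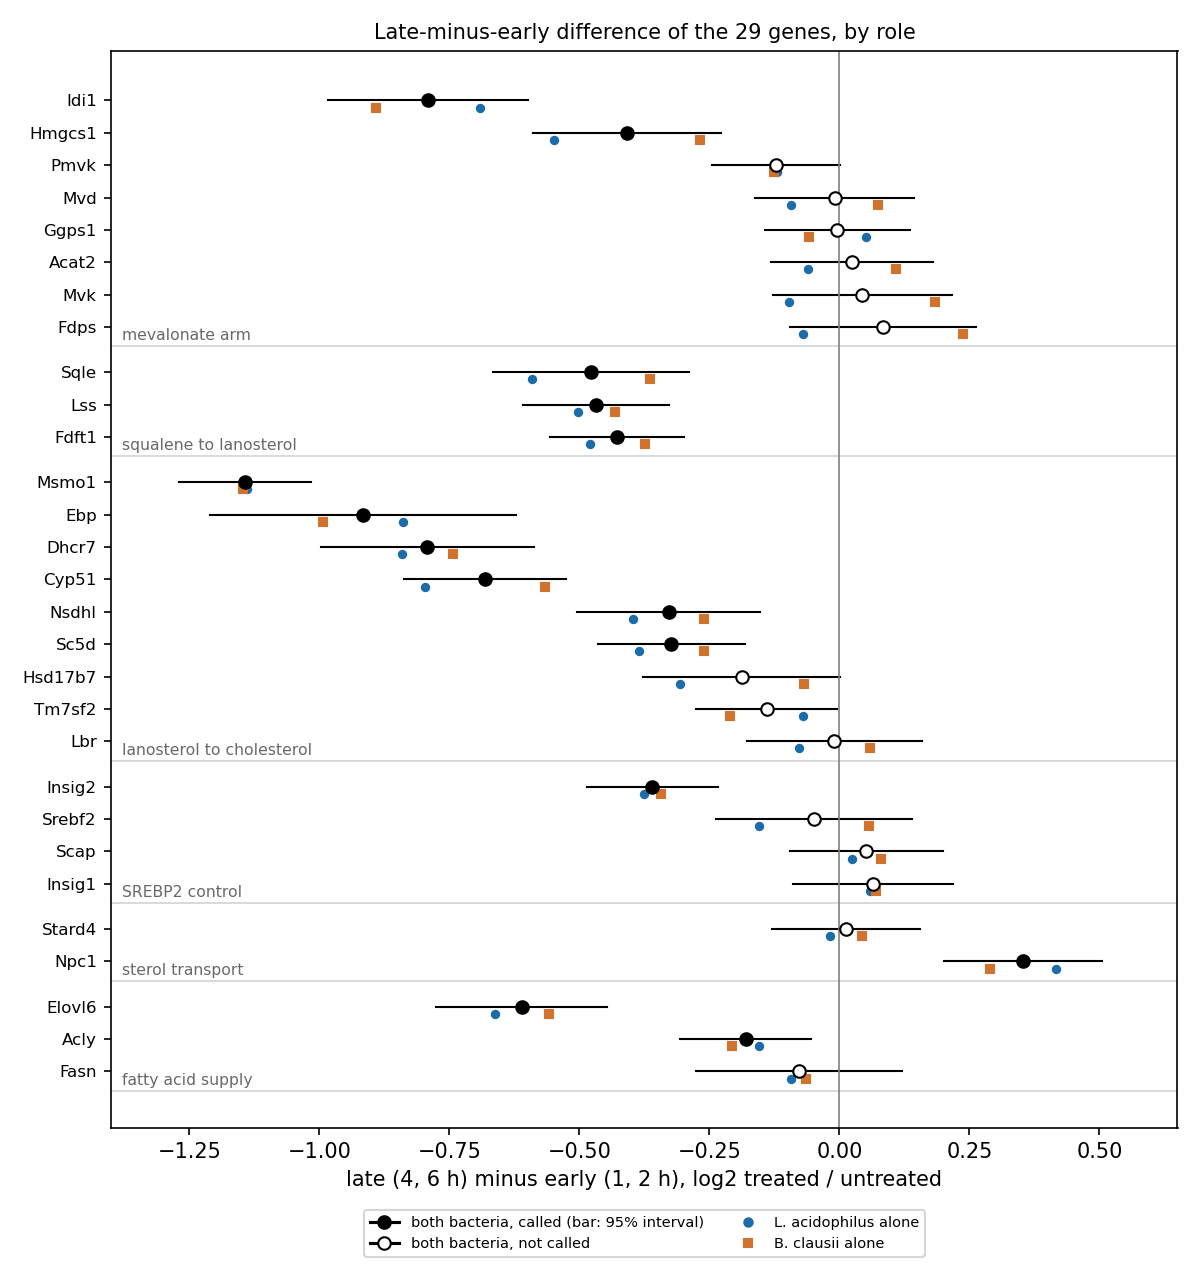
Late (4 and 6 h) minus early (1 and 2 h) log2 treated over untreated signal (horizontal axis) for the 29 genes grouped by role, with large points and 95% intervals from the fit of both bacteria (filled where the test was passed) and small points for each bacterium alone. All 3 genes from squalene to lanosterol and 6 of 9 from lanosterol to cholesterol are filled and below 0, while 6 of the 8 mevalonate arm genes are open. Of all genes measured, 12.3% fell in the same test.

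Of the 4 SREBP2 control genes 1 fell, against 12.3% of all genes. Insig2, a retention factor for SCAP, had ratios of 0.37, 0.08, -0.32 and 0.02 with L. acidophilus, beside 0.15, -0.09, -0.43 and -0.20 with B. clausii. On this brightest probe it was lowest at 4 h with each bacterium, and its change was -0.36 (SE 0.06, adjusted p = 0.00297). Its other kept probe was lowest at 2 h with each bacterium (-0.46 and -0.44) and changed by -0.12. Srebf2, which encodes SREBP2 itself, had a change of -0.05 (95% interval -0.24 to 0.14). For the escort protein gene Scap the change was 0.05 (-0.09 to 0.20), and for Insig1, the other retention factor and itself an SREBP target, 0.06 (-0.09 to 0.22).

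Npc1, which exports cholesterol from lysosomes, was the gene that rose. Its ratios were -0.0060, 0.04, 0.40 and 0.47 with L. acidophilus, and for B. clausii 0.06, 0.12, 0.49 and 0.27. All 4 late values lay above all 4 early ones, and the change was 0.35 (SE 0.07, adjusted p = 0.00685). Stard4, a cytosolic sterol carrier, had a change of 0.01 (95% interval -0.13 to 0.15).

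Among the fatty acid supply genes 2 of 3 fell, against 12.3% of all genes. Elovl6, an elongase of long-chain fatty acids, had ratios of 0.34, 0.13, -0.29 and -0.57 with L. acidophilus, where B. clausii gave 0.57, 0.04, -0.22 and -0.29. The phases did not overlap, and the change was -0.61 (SE 0.07, adjusted p = 0.00105). Acly, which makes cytosolic acetyl-CoA from citrate, had -0.0068, 0.07, -0.08 and -0.17 with L. acidophilus, beside -0.21, -0.07, -0.28 and -0.43 with B. clausii. Its early and late values overlapped, and the change of -0.18 (SE 0.06, adjusted p = 0.0441) had the highest adjusted p of the 15. It passed in 7 of 27 other settings. Fasn, the fatty acid synthase, had a change of -0.08 (95% interval -0.28 to 0.12).

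On single arrays, few genes passed 2-fold. At 6 h with L. acidophilus 1 of the 29 was at least 2-fold lower (Msmo1), against 0.135% of all genes. At 6 h with B. clausii 3 were (Ebp, Idi1 and Msmo1), against 0.33% of all genes. On the other 6 arrays none of the 29 reached 2-fold in either direction, and none reached 3-fold on any array.

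The 2 channels were then read apart, comparing each probe only with itself. The log2 signal of Msmo1 in treated cells in the L. acidophilus series was 14.5, 14.2, 13.5 and 12.9, from 1 to 6 h, and in the B. clausii series 14.5, 14.1, 13.7 and 13.0. In untreated cells it stayed between 13.9 and 14.1 on the 8 arrays. The late minus early change of the treated signal was -1.05, beside 0.09 in untreated cells. Over the 29 genes the median change was -0.18 in the treated channel (range -1.28 to 0.32) and -0.03 in the untreated one (-0.37 to 0.12). Fitted alone, the treated channel gave 11 of the 29 that fell and 1 that rose, with 12.2% of all genes passing in either direction. None passed in limma's fit of the untreated channel alone, against 0.903% of all genes. In that fit 2 had an unadjusted p under 0.05, with the share of all genes under this limit not counted. Ebp had the most negative value in the untreated channel: its untreated signal was 12.8 and 13.1 at 6 h, against 13.5 to 14.0 at the earlier times, and the change of its treated signal from 1 to 6 h was -2.36 (L. acidophilus) and -2.39 (B. clausii) on the log2 scale.

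**Figure D3:**
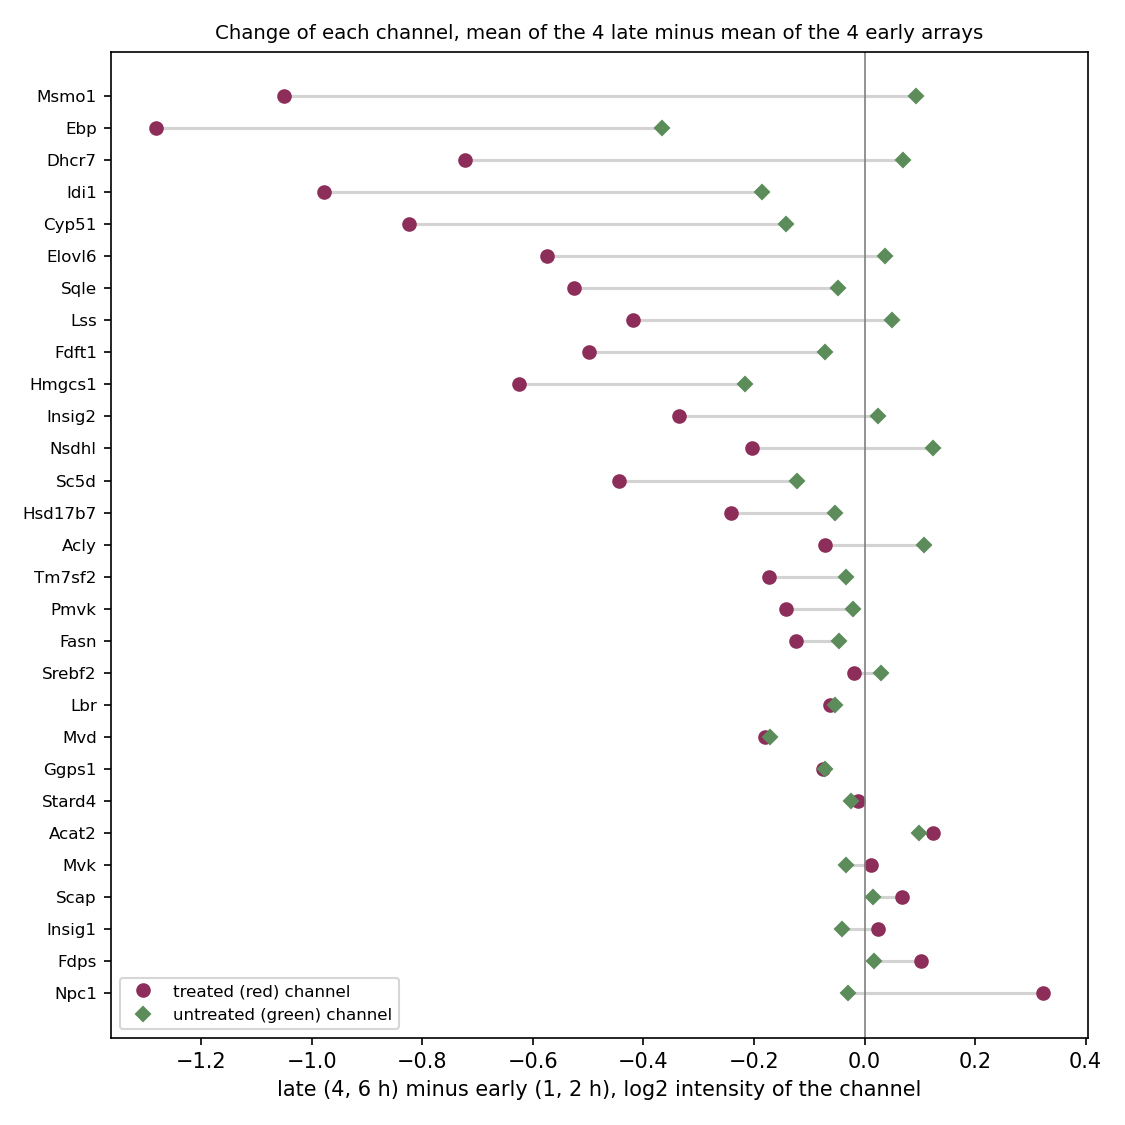
Late minus early change in log2 signal (horizontal axis) of the treated channel (circles) and the untreated channel (diamonds) for each of the 29 genes, each the mean of 4 late minus the mean of 4 early arrays. Treated values range from -1.28 to 0.32, and untreated ones from -0.37 (Ebp) to 0.12.

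The bacteria were compared directly. None of the 29 genes passed limma's test of a difference between L. acidophilus and B. clausii in the mean over times, where 0.64% of all genes did. In this test 8 had an unadjusted p under 0.05, a count without the matching share of all genes. The difference (L. acidophilus minus B. clausii) of Msmo1 was -0.0042 with a 95% interval of -0.13 to 0.12, and that of Dhcr7 -0.01 with -0.22 to 0.19. It was widest for Hsd17b7, at 0.36 (0.17 to 0.54, adjusted p = 0.0862), whose ratios were 0.01, 0.11, -0.10 and -0.40 with L. acidophilus, and for B. clausii -0.52, -0.31, -0.53 and -0.43. The largest difference the other way was that of Srebf2, at -0.23 (-0.42 to -0.05, adjusted p = 0.156). Its ratios were 0.04, 0.06, 0.04 and -0.25 with L. acidophilus, where B. clausii gave 0.10, 0.26, 0.18 and 0.29.

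No difference between the bacteria in the late minus early change passed for the 29 genes in limma's test of the interaction, where 0% of all genes passed and none of the 29 had an unadjusted p under 0.05. That test is coarse: the interval of Msmo1 ran from -0.85 to 0.87 and that of Idi1 from -0.69 to 1.09. Taken alone, with 2 arrays a phase, the change of Msmo1 was -1.14 with L. acidophilus and -1.15 with B. clausii, and neither passed after adjustment over all genes (adjusted p = 0.167 and 0.122). With plain median centring 10 of the 29 passed the test between the bacteria in their means, all higher with L. acidophilus, where 32.8% of all genes passed. The sources used here do not say whether the bacteria shared their untreated RNA at a given time.

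Averaged over the 4 times, 19 of the 29 genes did not pass with L. acidophilus, and 17 did not with B. clausii. With L. acidophilus 3 of the 29 genes were higher than untreated (Sqle, Npc1 and Fdft1) and 7 lower, against 23.7% and 18.4% of all genes. With B. clausii 5 were higher (Sqle, Npc1, Srebf2, Nsdhl and Scap) and 7 lower, against 23% and 21.1% of all genes. The counts of higher genes lay below the shares of all genes, and those of lower genes lay near them. Lowest were Mvk with L. acidophilus, at -0.27 (SE 0.05, adjusted p = 0.00495), and Hsd17b7 with B. clausii, at -0.45 (SE 0.06, adjusted p = 0.000501). These means carry any dye effect of a probe, since no array exchanged the dyes. In the change with time and the difference between bacteria, a dye effect equal on all arrays cancels. One that varies between arrays does not cancel, and this was not tested. With plain median centring, which moved the median of all genes by up to 0.46 on an array, Fdft1 with L. acidophilus and all 5 of the higher genes with B. clausii had values below 0. The share of lower genes among all that passed then went from 43.8% to 77.0% with L. acidophilus and from 47.8% to 91% with B. clausii, and with local backgrounds as deposited it was 54.9% and 61.6%. Without the 4 h array of L. acidophilus 1 gene in place of 10 passed with that bacterium (21.7% of all genes), without both 4 h arrays 6 in place of 12 passed with B. clausii (32.7%), and without a time term 5 did (23.3%).

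Other probes of the same genes were then set beside the brightest one. Besides it, 24 probes of 17 genes were kept, and 21 of the 24 had a late minus early value below 0. For Cyp51 they gave -0.74 and -0.39 (brightest -0.68), and for Lss -0.63 and -0.06 (brightest -0.47). Dimmer probes of Idi1 and Dhcr7 changed less, at -0.04 and -0.17. So did those of Insig2 (-0.12, brightest -0.36), Sc5d (-0.07, brightest -0.32) and Hmgcs1 (-0.12, brightest -0.41). The 2 other probes of Nsdhl gave -0.15 and -0.44 (brightest -0.33). Some genes listed above as not passing had a probe that was lower late: Fdps -0.55 (brightest 0.08), Stard4 -0.26 and -0.52 (brightest 0.01), Hsd17b7 -0.47 (brightest -0.19) and Insig1 -0.25 (brightest 0.06). The 3 other probes of Srebf2 gave 0.25, -0.27 and 0.03, and those of Ggps1 0.06 and -0.18. Mvk had a second probe at -0.05. The mean of Hsd17b7 with B. clausii was -0.45 on the brightest probe and -0.0022 on the other, so that this response rests on 1 probe. That of Srebf2 was 0.21 on the brightest probe and -0.15 on the next brightest, and with the mean over its probes it was 0.05 and did not pass (adjusted p = 0.284). With the mean over kept probes of a gene, 16 of the 29 fell and 1 rose (21.2% of all genes passed), with Stard4 (adjusted p = 0.013) and Hsd17b7 (adjusted p = 0.015) now among those that passed.

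**Figure D4:**
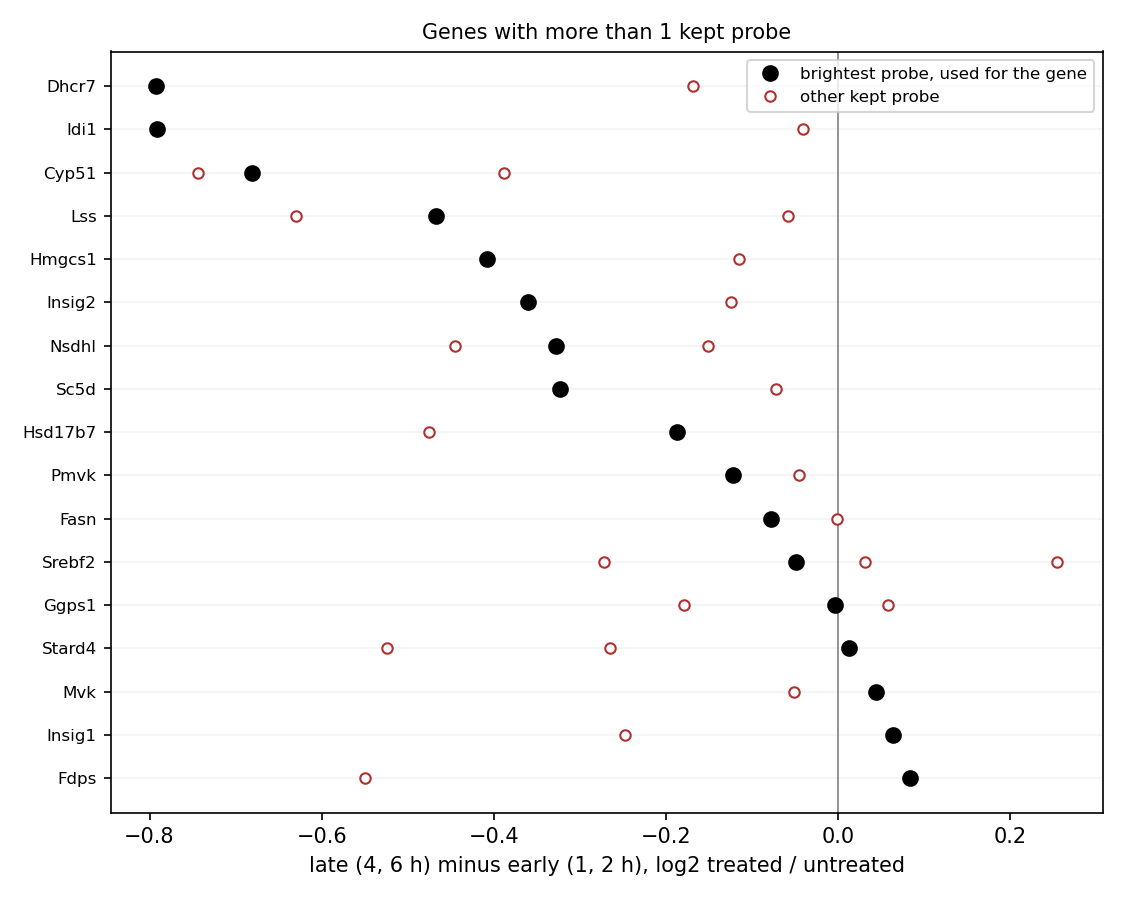
Late minus early log2 treated over untreated signal (horizontal axis) of every kept probe for the 17 genes with more than 1, filled for the brightest probe and open for the others. The open points of Fdps, Stard4 and Insig1 reach -0.55, -0.52 and -0.25, while their filled points are at 0.08, 0.01 and 0.06.

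Other genes of the pathway, taken from lists of known pathway genes, moved partly with the set. Of 21 measured genes of 22 on a list of further SREBP targets and partners, 12 fell and 2 rose late against early, with a median change of -0.26. Of all genes, 12.3% fell and 12.2% rose in the same test. Among those that fell were Aacs, which makes acetoacetyl-CoA for sterol synthesis, at -0.72 (SE 0.06, adjusted p = 0.000273), the desaturase Scd2 at -0.62 (SE 0.10, adjusted p = 0.00334) and Tmem97, a sterol-responsive membrane protein, at -0.55 (SE 0.06, adjusted p = 0.000906). The ratios of Scd2 were 0.74, 0.56, 0.17 and -0.42 with L. acidophilus, beside 0.87, 0.77, 0.40 and 0.32 with B. clausii, above 0 on 7 of 8 arrays. The subunits of the CCAAT factor NF-Y, named here after their values were seen, went apart: Nfya rose by 0.39 and Nfyc by 0.20, and Nfyb fell by 0.43 on the log2 scale.

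Of 14 measured genes of 16 on a list of oxysterol, storage and efflux genes, 4 rose and 2 fell, against 12.2% and 12.3% of all genes. Abca1, the main cholesterol exporter, rose by 0.47 late against early (SE 0.07, adjusted p = 0.00214). Its ratios were -0.53, -0.39, 0.24 and -0.18 with L. acidophilus, beside -0.28, -0.03, 0.66 and -0.07 with B. clausii, so that only the 4 h arrays were above 0. Npc2, the lysosomal partner of Npc1, rose by 0.31 (SE 0.07, adjusted p = 0.0137). Soat1, which esterifies cholesterol for storage, fell by 0.42 (SE 0.08, adjusted p = 0.00768). The exporter Abcg1 was below untreated on all 8 arrays and lowest at 6 h, at -1.12 with L. acidophilus and -0.76 with B. clausii. Of 10 genes of sterol sensing and degradation 1 rose (Vcp, 0.25) and 1 fell (Aup1, -0.21), near the shares of all genes (12.2% and 12.3%). In the branch to dolichol, ubiquinone and prenylated proteins 3 of 10 measured genes of 11 fell, against 12.3% of all genes. Among the 3 were Nus1 (-0.34) and Dhdds (-0.25), the subunits of the enzyme that makes the dolichol precursor.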

How the data were processed

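RNA of RAW 264.7 cells was measured on 8 two-colour Agilent mouse arrays, 1 per bacterium and time, each RNA a pool of 3 cultures per the series design text. The authors' deposited intensity values give each spot's mean foreground and median local background in each channel, with 0 or 1 quality flags per spot (other), per the file headers. The deposited log10 ratios are Feature Extraction's log10 of red over green processed signal, per the file headers, and the deposited series matrix holds the same values rounded (differences under 0.005). Its version is 10.7.3.1 in the headers but 10.5.1.1 in the submitters' processing notes.

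From the deposited intensities, log2 ratios were computed in limma 3.58.1 (R 4.3.3, statmod 1.5.0, package data.table in version 1.17.8) after normexp background correction with an offset of 50, followed by loess within each array. A local background marked as an outlier and over 3 times the median of its array was replaced by this median, and the spot was not used. Probes well above background in 1 channel on at least 2 arrays were kept (21691 of 41174), and 549 probes that lacked a usable spot on any 1 of the arrays were dropped. Probes were named through RefSeq of GRCm38.p6 (27670 by accession, 84 by another accession, 6134 by symbol, 7286 by the file's name). Limma fitted bacterium and time (3 residual degrees of freedom) and, for the interaction, the 4 cells of bacterium and phase (4 degrees). Run on simulated data as a check of the code, the fits gave changes of the size put in, but the smallest changes often did not pass, above all in the interaction. The simulated arrays had independent noise and no difference between the times of a phase, so they do not measure how the interaction test performs here.

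The genes, lists, tests and alternatives were chosen with earlier results of these data known. All 29 genes are named. Full values are given for those that passed a test over time or between bacteria or 2-fold, and other listed genes are named only where they passed or reached 2-fold, at most 4 a list, except the NF-Y subunits, which were added after their values were seen. Some listed genes are counted but not named here. The number of arrays limits the precision. Figures were drawn with matplotlib.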

Additional observations from a re-analysis of the deposited data

How the results depend on the processing

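The counts of the 29 genes that passed were recomputed under each alternative. Plain median centring in place of loess gave 16 genes in place of 10 for the mean response to L. acidophilus, 26 in place of 12 for B. clausii, 10 in place of 0 for the difference between bacteria and 8 in place of 15 for late minus early, and 8 in place of 4 values past 2-fold. Of all 14834 genes, 1331 were then higher and 4459 lower with L. acidophilus, and 855 higher and 8645 lower with B. clausii. For the difference between bacteria 32.8% of all genes passed, and for late minus early 21.7%. Median centring also moved the median change of the treated channel to -0.092 and of the untreated channel to -0.11. It turned the mean of Fdft1 with L. acidophilus to -0.0547, and with B. clausii those of Npc1 to -0.16, Nsdhl to -0.25, Scap to -0.22, Sqle to -0.042 and Srebf2 to -0.20. Without a time term, 2 genes passed for L. acidophilus, a count given without its share of all genes, and 5 for B. clausii (23.3% of all genes). Local backgrounds as deposited gave 5 for L. acidophilus, where 1036 of all genes were higher and 1263 lower. For any difference among times they gave 8 in place of 14 (4.11% of all genes), and a normexp offset of 0 also gave 8 (4.23%). The processed signals and the series matrix gave 0 for that test (0% of all genes) and 1 value past 2-fold each. Scale normalization also gave 1 such value, and a 3-fold limit 0. At adjusted p under 0.1, 1 gene differed between bacteria, a count also given without its share of all genes. The untreated channel alone gave 0 genes late minus early, with Acly at 0.11, Dhcr7 0.069, Elovl6 0.0366, Insig2 0.0236, Lss 0.049, Msmo1 0.0923, Nsdhl 0.12 and Npc1 -0.0293.

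Leaving out 1 array, or both arrays of a time, gave 1 to 14 genes for L. acidophilus, 6 to 16 for B. clausii, 9 to 15 for late minus early, 9 to 15 for any difference among times and 0 to 0 for the difference between bacteria and for the interaction. The lowest counts stood beside 21.7% of all genes for L. acidophilus, 32.7% for B. clausii and 7.98% for late minus early. The means ranged from -0.376 to 0.164 for Msmo1 with L. acidophilus, from -0.393 to 0.181 for Msmo1 with B. clausii and from -0.323 to 0.0752 for Cyp51 with L. acidophilus, above 0 without both 6 h arrays. Over 25 settings other than a single channel, the late minus early values of the 15 genes gave 329 of 375 that passed in the same direction, 46 that did not pass and 0 of the opposite sign. Cyp51, Ebp, Elovl6, Idi1 and Msmo1 (5 genes) passed in each. The cause of these differences between settings was not tested. No paired analysis was possible because the labels give no replicate numbers to use as a block, although each ratio sets treated against untreated RNA of 1 array and the time term compares the bacteria within a time.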
